A study of Homo sapiens with 4 samples.

Results

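The 10 genes described here are cytokine, chemokine, adhesion and feedback genes of the NF-κB pathway: CXCL8, CXCL1, CXCL2, CCL20, CCL2, IL6, LIF, ICAM1, NFKBIA and TNFAIP3. They were taken by name, and each symbol matched 1 of the 60671 Ensembl genes in the TPM tables of 22RV1 and PC3 cells. RNA was sequenced from both human prostate carcinoma lines after infection with lentivirus and puromycin selection. The 4 groups were 22RV1 shCON (control shRNA), 22RV1 shDDX52 (shRNA against the RNA helicase gene DDX52), PC3 shCON and PC3 shDDX52. Each group had 1 library, so no difference has a replicate check, no p-value was computed, and differences between cultures cannot be told apart from the effect of the shRNA. A single shRNA sequence was used against DDX52, so its other effects cannot be told apart from loss of DDX52.

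NF-κB is a family of dimeric transcription factors held in the cytoplasm by IκB proteins. Tumour necrosis factor, interleukin-1 and other signals activate the IκB kinase complex, IκB is degraded, and the freed dimers bind κB sites in DNA. Their targets include chemokines that draw in neutrophils, T cells and monocytes, the cytokines IL-6 and LIF, adhesion molecules, and the genes NFKBIA and TNFAIP3, whose proteins switch the pathway off again.

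Values are TPM, transcript abundances scaled to a fixed total, which correct for transcript length, so levels of different genes can be compared. TPM keeps no sequencing depth, and the precision of a single value is unknown. Pairs of values below give the shCON library first and the shDDX52 library after it. The targeted gene, DDX52, was at 4.88 and 1.20 TPM in 22RV1 and at 9.20 and 2.07 TPM in PC3. The listed TPM summed to between 984448 and 990860 per library, and between 13504 and 13738 genes reached 1 TPM. None of 10 housekeeping genes was listed at 0 in any library. All 7 prostate luminal markers reached 1 TPM in both 22RV1 libraries, against 3 of 7 in both PC3 libraries. Nuclear rRNA genes held between 0.0872% and 3.13% of the TPM, the highest share being in PC3 shDDX52.

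The promoters are shown first because the κB site is the sequence that NF-κB binds. RefSeq promoter sequences on GRCh38.p14 covered 8 of the 10 genes, and LIF and CCL2 had no entry. Each printed stretch runs 5′ to 3′ on the strand of the gene and ends at the last base before the RefSeq start. It is 120 bases long, and 200 bases for ICAM1, whose match lies further upstream. Capitals mark matches to GGANNTTCC or to the κB consensus, on either strand.
CXCL8, chr4:73740449-73740568, plus strand: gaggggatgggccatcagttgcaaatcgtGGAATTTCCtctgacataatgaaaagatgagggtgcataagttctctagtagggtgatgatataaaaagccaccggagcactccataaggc
CXCL1, chr4:73869273-73869392, plus strand: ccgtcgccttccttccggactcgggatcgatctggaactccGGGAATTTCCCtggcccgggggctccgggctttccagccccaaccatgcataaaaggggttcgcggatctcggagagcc
CXCL2, chr4:74099196-74099315, minus strand: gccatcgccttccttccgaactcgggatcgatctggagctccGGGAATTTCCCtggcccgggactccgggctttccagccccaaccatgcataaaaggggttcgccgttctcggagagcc
IL6, chr7:22727080-22727199, plus strand: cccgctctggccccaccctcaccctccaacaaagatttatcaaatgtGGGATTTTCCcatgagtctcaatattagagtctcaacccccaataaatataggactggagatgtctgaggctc
CCL20, chr2:227813722-227813841, plus strand: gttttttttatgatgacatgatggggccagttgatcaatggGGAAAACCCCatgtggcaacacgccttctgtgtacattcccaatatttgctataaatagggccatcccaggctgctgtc
TNFAIP3, chr6:137867139-137867258, plus strand: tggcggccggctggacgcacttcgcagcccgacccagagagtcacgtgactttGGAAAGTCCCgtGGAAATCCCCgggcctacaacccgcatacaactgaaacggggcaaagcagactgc
NFKBIA, chr14:35404750-35404869, minus strand: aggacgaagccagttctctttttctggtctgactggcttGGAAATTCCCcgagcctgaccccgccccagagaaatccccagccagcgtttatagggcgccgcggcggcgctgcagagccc
ICAM1, chr19:10270920-10271119, plus strand: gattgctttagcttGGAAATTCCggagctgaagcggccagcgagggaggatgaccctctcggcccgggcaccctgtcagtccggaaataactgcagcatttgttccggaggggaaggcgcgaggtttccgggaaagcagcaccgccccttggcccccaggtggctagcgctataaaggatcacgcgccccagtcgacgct

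CXCL1 and CXCL2 carried the same capital run, GGGAATTTCCC, beginning 79 and 78 bases before the start. CXCL8 held GGAATTTCC, beginning 91 bases before the start, and IL6 held GGGATTTTCC, beginning 73 bases before it. TNFAIP3 held 2 separate runs, GGAAAGTCCC and GGAAATCCCC. CCL20, TNFAIP3 and NFKBIA matched the consensus on the antisense strand only. NFKBIA had a further match, GGACTTTCC, that begins 242 bases before the start and is outside the printed stretch. In windows from 250 bases before to 50 after the start, GGANNTTCC was present in 7 of the 8 promoters, against 4.56% of all 35116 RefSeq promoters. The κB consensus was present in 6 of 8, against 11.3% of all, and 8 of 8 held at least 1 of these overlapping motifs, against 13.6% of all. TATAAA was present in 4 of 8, against 11.5% of all, and the AP-1 motif TGANTCA in 1 of 8, CXCL8, against 7.71% of all. Some of the genes are textbook examples of κB-driven promoters, so the matches are a description, and factor binding was not measured.

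The comparison of PC3 with 22RV1 control cells asks how far the lines differ in these genes before DDX52 is knocked down. Among the neutrophil chemokines, CXCL8, which encodes interleukin-8, was at 0.07 and 0 TPM in 22RV1, against 199 and 163 TPM in PC3. CXCL1 was listed at 0 in both 22RV1 libraries and reached 791 and 609 TPM in PC3. CXCL2 was also listed at 0 in both 22RV1 libraries, and was at 48.2 and 22.8 TPM in PC3. All 3 chemokines were thus detected at high or moderate levels in PC3 libraries and were at or near 0 in 22RV1 libraries. By level, CXCL1 ranked 193 and 237 of all 60671 genes in the PC3 libraries, and alone held 49.1% and 46.0% of the summed TPM of the 10 genes.

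The chemokines that act on other leukocytes parted from each other. CCL20, which attracts lymphocytes and dendritic cells through CCR6, was at 0.39 and 0 TPM in 22RV1 and at 40.1 and 15.9 TPM in PC3. CCL2, the main monocyte chemoattractant, was listed at 0 in 3 libraries and at 0.09 TPM in PC3 shDDX52. It was the only one of the 10 genes under 1 TPM in all 4 libraries, and no fold is given for it.

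The cytokines of the IL-6 family were present in PC3 cells. IL6 was listed at 0 in both 22RV1 libraries and was at 79.9 and 66.0 TPM in PC3. LIF, which signals through the same gp130 chain as IL-6, was at 1.31 and 1.69 TPM in 22RV1 and at 84.9 and 151 TPM in PC3. LIF was the only cytokine or chemokine of the group to reach 1 TPM in 22RV1 cells. ICAM1, the endothelial and epithelial ligand for leukocyte integrins, was at 0.28 and 0.38 TPM in 22RV1 and at 109 and 122 TPM in PC3.

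The feedback inhibitors behaved less alike. NFKBIA, which encodes IκBα, was at 42.0 and 56.4 TPM in 22RV1 and at 241 and 152 TPM in PC3. TNFAIP3, which encodes the ubiquitin-editing enzyme A20, was at 0.38 and 0.30 TPM in 22RV1 and at 16.8 and 20.7 TPM in PC3. NFKBIA was therefore the only one of the 10 genes with a substantial level in both lines, at 5.74 times its 22RV1 level in PC3 shCON and 2.70 times in the shDDX52 pair.

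**Figure D1:**
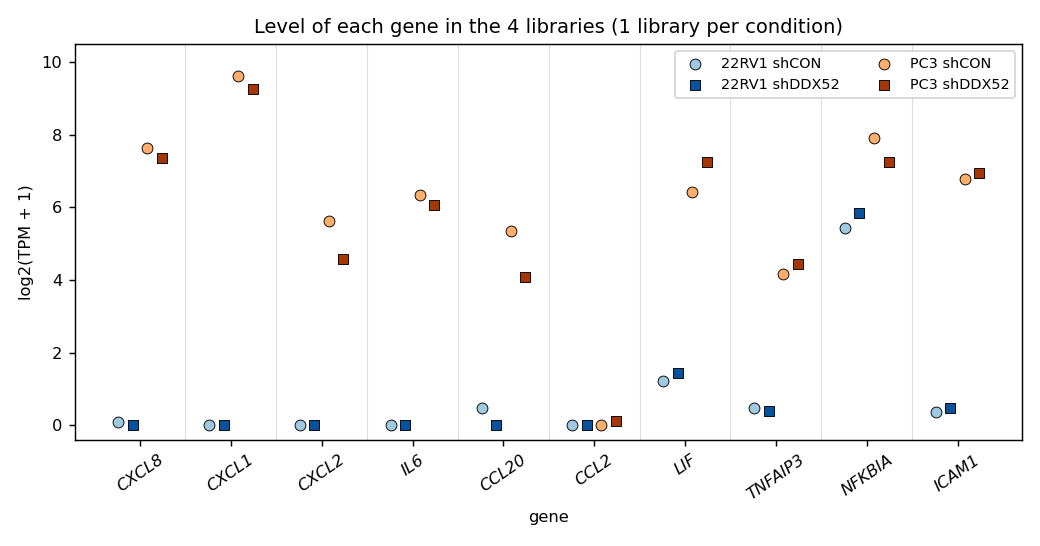
Level of each of the 10 genes as log2(TPM + 1) in the 22RV1 (blue) and PC3 (orange) libraries, circles for shCON and squares for shDDX52, with 1 library per condition and no error bars. NFKBIA is the only gene well above 0 in both lines, and CCL2 lies at or near 0 in all 4 libraries.

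In PC3 shCON, the order from high to low was CXCL1, NFKBIA, CXCL8, ICAM1, LIF, IL6, CXCL2, CCL20, TNFAIP3 and CCL2. LIF and IL6 were neighbours at 84.9 and 79.9 TPM, and without replicates it is unknown which neighbours differ beyond the spread between samples. In all, 9 of the 10 genes were at 1 TPM or more in both PC3 libraries, against 2 of 10, NFKBIA and LIF, in both 22RV1 libraries. The summed TPM of the 10 genes was 44.4 and 58.8 in 22RV1 and 1610.1 and 1324 in PC3.

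For a count past a fixed fold, the log2 ratio was the log2 of (TPM + 1) in one library over (TPM + 1) in the other, computed where one of them or both reached 1 TPM. In control cells, 9 of the 9 genes that passed this filter were at least 2-fold higher in PC3 than in 22RV1, against 19.9% of 15727 genes tested. The filter was passed through the PC3 library in each case except NFKBIA and LIF, so 7 of the 9 had to be higher in PC3. Their log2 ratios ran from 2.49 for NFKBIA to 9.63 for CXCL1, with a median of 5.62, while the median of all genes tested was −0.067. This median depended on the pseudocount, with values from 3.83 to 8.17, since several of the 22RV1 values were 0 or near it. Where the 22RV1 shCON value was above 1 TPM, the plain ratio of PC3 to 22RV1 was 64.8 for LIF and 5.74 for NFKBIA. The LIF ratio was 89.6 between the shDDX52 libraries.

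The RNA came from cultured carcinoma lines and not from tissue, and the genes below are named as markers only by their usual use. In bulk RNA, fewer cells of a type and less RNA per cell cannot be told apart. Leukocyte markers moved with the difference between the lines: the 7 markers summed to 11.2 and 4.66 TPM in the 22RV1 libraries and 46.5 and 38.01 TPM in the PC3 libraries. In PC3 cells, CD68 alone made up 38.4 and 35.6 TPM of this, CD14 was at 7.22 and 1.29 TPM, and the other 5 markers were under 1 TPM. PTPRC, the pan-leukocyte marker, was at 0.16 and 0.39 TPM in PC3, and the T cell marker CD3E was listed at 0 in both. With shDDX52 in PC3 cells CD14 had a log2 ratio of −1.84, in the same direction as CCL20 and CXCL2. The endothelial marker PECAM1 was at 5.03 and 0.85 TPM in PC3 cells, and its log2 ratio of −1.70 was also in that direction, while CDH5, another endothelial marker, had one of 0.89. The 7 markers of fibroblasts and endothelium summed to between 5.34 and 14.5 TPM in the 4 libraries. The part of other cell types in these results was not tested beyond these levels.

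Knockdown in 22RV1 cells was then compared, to ask whether these genes differ when DDX52 is reduced in a line that hardly expresses them. Of the 10 genes, 2 passed the filter. LIF had a log2 ratio of 0.22 and NFKBIA one of 0.42, which is 134% of its control level. None of these 2 genes was at least 2-fold higher or lower with shDDX52, against 2.24% of 14438 genes tested that were higher and 2.86% that were lower. Both values were above the median of all genes, −0.076. CXCL8 and CCL20 were above 0 in 22RV1 shCON and listed at 0 in 22RV1 shDDX52, but from levels of only 0.07 and 0.39 TPM.

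In PC3 cells, where 9 of the 10 genes could be compared, the values with shDDX52 differed from gene to gene. Each knockdown comparison shares its shCON library with the comparison between the lines. CCL20 was at 39.6% of its control level with shDDX52, a log2 ratio of −1.28, and CXCL2 was at 47.4%, a log2 ratio of −1.05. These 2 of the 9 genes that passed the filter were at least 2-fold lower, against 3.44% of 14262 genes tested. No gene of the 9 was at least 2-fold higher, against 2.86% of genes tested. CXCL2 lay close to the threshold: with a pseudocount of 5 TPM its log2 ratio was −0.93, and with TPM rescaled to nuclear protein-coding genes it was −0.92, so that only CCL20 remained past 2-fold. That rescaling moved the median of all genes by 0.12, from −0.036 to 0.087, and with it 2.25% of genes were at least 2-fold higher and 1.39% lower. The nuclear rRNA share was 0.0923% and 3.13% in the PC3 libraries, and its part in the differences was not tested beyond this rescaling.

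NFKBIA was at 63.3% of its control level in PC3 shDDX52, a log2 ratio of −0.66. CXCL1 was at 77.1%, CXCL8 at 81.6% and IL6 at 82.6% of control, with log2 ratios of −0.38, −0.29 and −0.27. In the other direction, LIF was at 178% of control, a log2 ratio of 0.83, TNFAIP3 at 123%, a log2 ratio of 0.28, and ICAM1 at 112%, a log2 ratio of 0.16. Of the 9 genes, 6 had values below 0 and 3 above 0, as they did under each of the 3 other scalings, and their median was −0.29 beside −0.036 for all genes. With TPM as deposited, 7634 of all 14262 genes tested were below 0 and 6610 above 0. None of the 7 genes in this paragraph reached a 2-fold difference, and with 1 library per condition the spread against which to judge them is unknown.

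**Figure D2:**
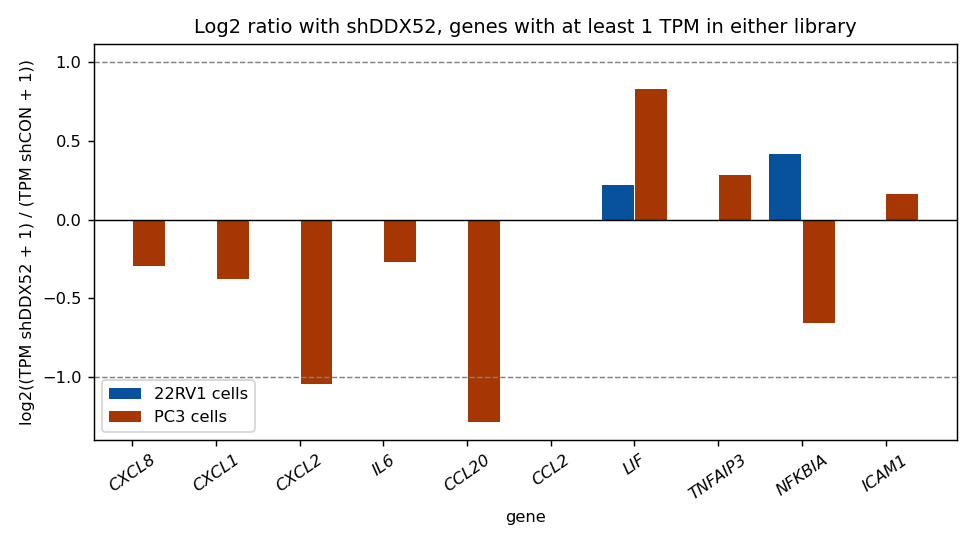
Log2 ratio of shDDX52 over shCON, with 1 TPM added to each value, in 22RV1 (blue) and PC3 (brown) cells, for genes that reached 1 TPM with shCON or shDDX52. Dashed lines mark a 2-fold difference, which CCL20 and CXCL2 pass downward in PC3 cells; NFKBIA is above 0 in 22RV1 and below 0 in PC3 cells.

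**Figure D3:**
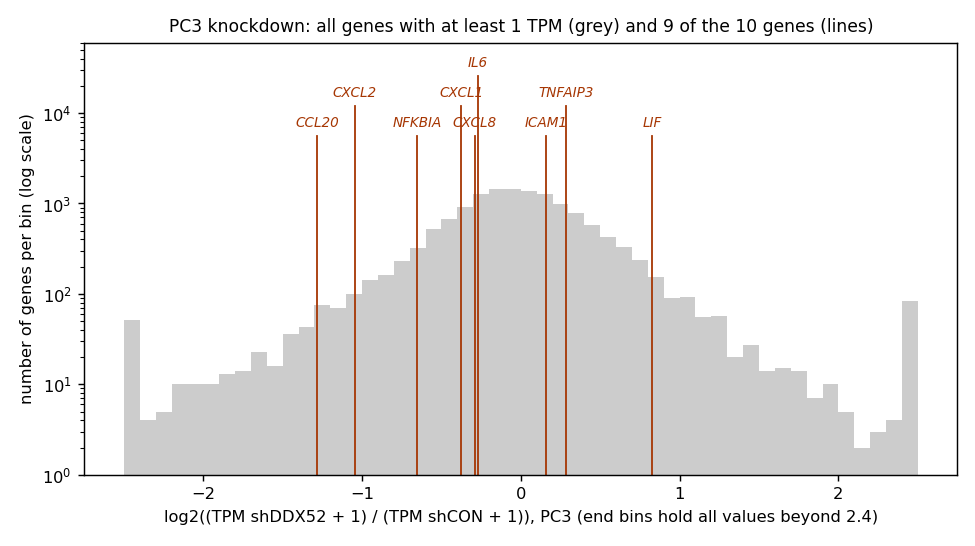
Number of genes per bin of the log2 ratio with shDDX52 in PC3 cells (grey, log scale) for all 14262 genes tested, with lines at the values of 9 of the 10 genes. CCL20 at −1.28 and CXCL2 at −1.05 lie in the lower tail and LIF at 0.83 toward the upper one, while CXCL8, CXCL1, IL6, ICAM1 and TNFAIP3 lie near the centre.

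Ratios between genes within a library do not depend on how the TPM were scaled. CXCL1 was 16.4 times CXCL2 in PC3 shCON and 26.7 times in PC3 shDDX52, whereas CXCL1 was 3.97 and 3.75 times CXCL8. LIF was 1.06 times IL6 in PC3 shCON and 2.3 times in PC3 shDDX52, and it was 2.12 and 9.54 times CCL20. NFKBIA was 14.3 times TNFAIP3 in PC3 shCON and 7.38 times in PC3 shDDX52. LIF had the highest and CCL20 the lowest log2 ratio of the 9 genes tested in PC3 knockdown. The balance between LIF and CCL20 thus had to differ most among the 8 pairs compared.

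CXCL8, CXCL1 and CXCL2 lie in the chemokine cluster of chromosome 4, which in GENCODE 29 on GRCh38 spans bases 73740506 to 74099293 from CXCL8 to CXCL2 and holds 9 protein-coding genes. The submitters' notes list hg19, so these positions are for orientation and were not used for the values. The other members lie on other chromosomes, CCL20 on 2, TNFAIP3 on 6, IL6 on 7, NFKBIA on 14, CCL2 on 17, ICAM1 on 19 and LIF on 22. In both PC3 libraries 6 of the 9 protein-coding genes of the cluster were at 1 TPM or more, and in both 22RV1 libraries 0 of 9 were. CXCL6, a neighbour that also attracts neutrophils, was at 117 and 154 TPM in PC3, and CXCL5 was at 25.5 and 28.98 TPM. CXCL3 was at 44.1 and 24.2 TPM, a log2 ratio of −0.84. The platelet chemokine genes PF4 and PF4V1 were listed at 0 in all 4 libraries, and PPBP was at 0.76 and 0.59 TPM in PC3. Within the cluster, CXCL5 and CXCL6 had PC3 log2 ratios of 0.18 and 0.39, opposite in sign to those of CXCL1, CXCL2, CXCL3 and CXCL8, and none of the cluster but CXCL2 reached 2-fold.

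**Figure D4:**
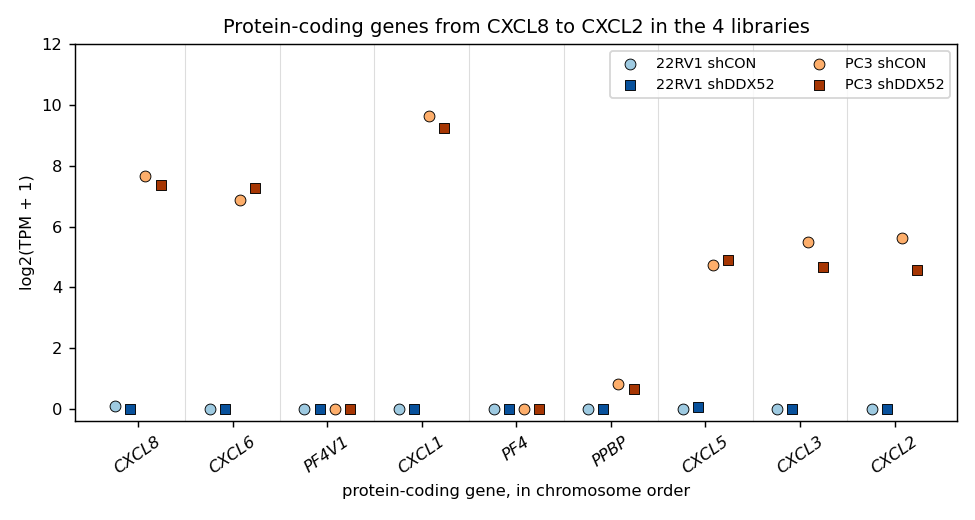
Level as log2(TPM + 1) of the 9 protein-coding genes from CXCL8 to CXCL2, in chromosome order, in the 4 libraries, circles for shCON and squares for shDDX52. CXCL1 is the highest in PC3 cells, CXCL2 and CXCL3 sit lower with shDDX52 than with shCON, and PF4 and PF4V1 are at 0 in each library.

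CXCL1, CXCL2 and CXCL3 are close paralogs. Of the 1048 stretches of 50 bases in the longest protein-coding transcript of CXCL1, 60 also occur in CXCL2, and of the 1169 stretches of CXCL2, 108 occur in another gene, chiefly CXCL1 and CXCL3. The way the authors counted reads shared by such copies is not given in the sources used here, so the split among these 3 genes is uncertain by that part. The other 8 genes shared 0 such stretches with any other gene.

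The rest of the pathway was examined through lists of its parts. For each count between the lines below, 19.9% of all genes tested were at least 2-fold higher in PC3 control cells and 21.3% lower. For each knockdown count below, 2.24% of all genes tested were at least 2-fold higher and 2.86% lower in 22RV1. In PC3 knockdown these shares were 2.86% and 3.44%. The NF-κB subunits were expressed in both lines: RELA, which encodes the p65 subunit, was at 62.3 and 64.5 TPM in 22RV1 and 72.1 and 93.8 TPM in PC3. RELB, a subunit of the alternative pathway, was at 1.11 and 2.5 TPM in 22RV1 and 12.9 and 20.2 TPM in PC3. Of the 4 subunits tested, 2 were at least 2-fold higher in PC3 than in 22RV1 control cells, RELB and NFKB1, the second with a log2 ratio of 1.03 that was under 1 when TPM were rescaled to nuclear protein-coding genes. With shDDX52 in PC3 cells, all 4 subunits tested had log2 ratios above 0, from 0.12 to 0.61 with a median of 0.31, and under each of the 3 other scalings they were also above 0. Of all 14262 genes tested, 6610 were above 0 with TPM as deposited. None of the 4 subunits reached 2-fold.

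None of the 10 inducing cytokines on the list reached 1 TPM in 22RV1 cells, and 4 did in each PC3 library. These 4 passed the filter through PC3 alone, so they had to be higher there. IL1B, which encodes interleukin-1β, was at 0.17 and 0 TPM in 22RV1 and at 1143 and 1252 TPM in PC3. IL1A, the interleukin-1α gene, was listed at 0 in 22RV1 and was at 13.5 and 10.4 TPM in PC3. IL18 was listed at 0 in both 22RV1 libraries and was at 76.0 and 63.6 TPM in PC3. LTB, a cytokine that acts through the lymphotoxin-β receptor, was at 0.25 and 0 TPM in 22RV1 and at 80.9 and 29.4 TPM in PC3, the PC3 log2 ratio with shDDX52 being −1.43. It was the only 1 of the 4 inducing cytokines tested in PC3 knockdown to pass 2-fold. Of all genes tested there, 3.44% were at least 2-fold lower.

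Among 30 other known NF-κB targets, 21 of the 25 tested were at least 2-fold higher in PC3 than in 22RV1 control cells and 1, the membrane-bound chemokine CX3CL1, was lower, at 7.78 TPM in 22RV1 and 0.01 TPM in PC3. Of the 21, 13 passed the filter through PC3 alone, and CX3CL1 passed it through 22RV1 alone, so their directions were fixed by the filter. LCN2, which encodes the iron-siderophore carrier lipocalin-2, was at 0.28 and 0.20 TPM in 22RV1 and 10421 and 9017 TPM in PC3. PLAU, the urokinase gene, was at 0.20 and 0.05 TPM in 22RV1 and 745 and 824 TPM in PC3, and the complement gene C3 was at 1.42 and 0.48 TPM in 22RV1 and 1379 and 811 TPM in PC3. With shDDX52 in PC3 cells, 2 of the 24 targets tested were at least 2-fold higher, against 2.86% of all genes tested. IL32, a cytokine gene at 20.5 and 46.0 TPM, was 1 of these. Another 1 of the 24 was at least 2-fold lower, against 3.44% of all genes tested. That gene, CSF3, which encodes the granulocyte growth factor G-CSF, was at 125 and 61.6 TPM, a log2 ratio of −1.01 that was within 2-fold under each of the 3 other scalings. In 22RV1 cells, 0 of 13 such targets tested passed 2-fold with shDDX52.

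The other 10 genes listed for IκB proteins and pathway inhibitors reached 1 TPM in each library, as did at least 19 of 21 kinases and adaptors. These 10 genes are called inhibitors for short. The list was not sorted by how each IκB protein acts, NFKBIZ and BCL3 included. In control cells 5 of the 10 inhibitors were at least 2-fold higher in PC3 than in 22RV1 and 0 lower, against 19.9% and 21.3% of all genes tested. TNIP1, a partner of A20, was at 49.9 and 53.6 TPM in 22RV1 and 320 and 273 TPM in PC3. NFKBIZ, which encodes the nuclear protein IκBζ, was at 1.93 and 2.84 TPM in 22RV1 and 22.6 and 15.3 TPM in PC3. The other 3 were BCL3, NFKBIE and CYLD, with log2 ratios from 1.03 to 1.07. Of the 21 kinases and adaptors, 6 (5 with TPM rescaled to nuclear protein-coding genes) were at least 2-fold higher in PC3 control cells and 1 was lower, with shares over all genes of 19.9% and 21.3%. BIRC3, the ubiquitin ligase gene and NF-κB target, had a log2 ratio of 2.07, from 0.03 TPM in 22RV1 and 3.31 TPM in PC3 control cells. It passed the filter through PC3 alone, so it had to be higher there. IKBKB, which encodes the catalytic kinase IKKβ, was the lower one, at 15.2 and 12.3 TPM in 22RV1 and 5.88 and 4.70 TPM in PC3. IRAK1, a kinase of interleukin-1 signalling, was at 138 and 161 TPM in 22RV1 and 240 and 359 TPM in PC3. In PC3 knockdown 0 of the 10 inhibitors and 0 of the 21 kinases and adaptors passed 2-fold. In 22RV1 knockdown 1 of 10 inhibitors was at least 2-fold lower, N4BP1, at 7.86 and 2.92 TPM, and 0 of 20 kinases and adaptors passed 2-fold. Of all genes tested in 22RV1 knockdown, 2.24% were at least 2-fold higher and 2.86% lower.

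**Figure D5:**
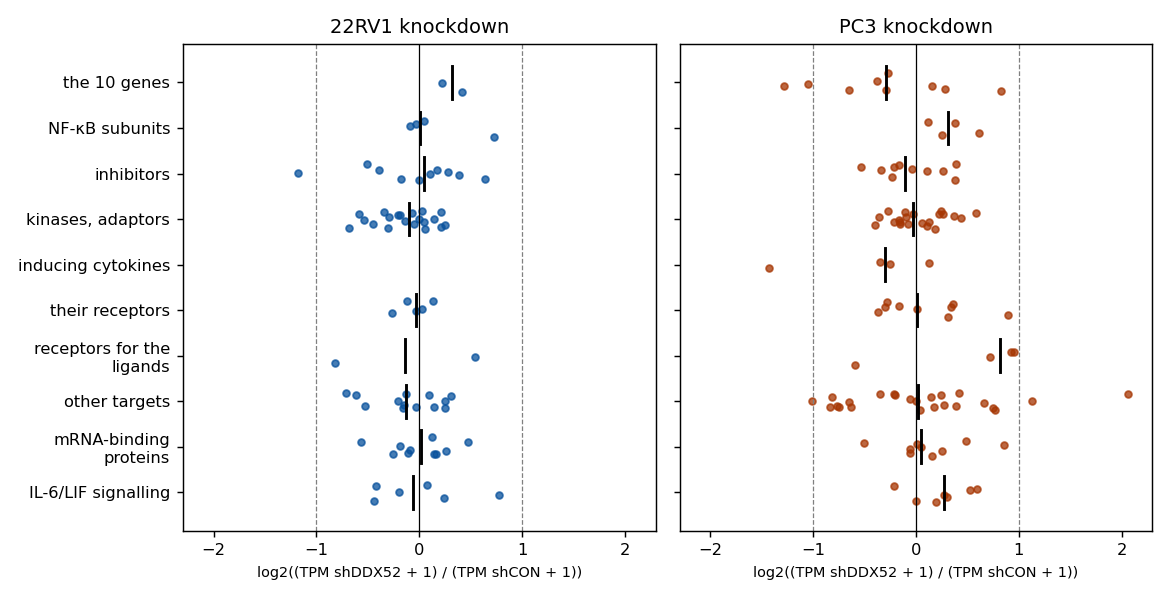
Log2 ratio of shDDX52 over shCON, with 1 TPM added to each value, for each listed gene that reached 1 TPM with shCON or shDDX52, in 22RV1 (left) and PC3 (right) cells; points are genes and black bars are medians. In PC3 cells the 4 NF-κB subunits tested lie above 0 with a median of 0.31, and the 10 genes, of which 9 are shown, have a median of −0.29.

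Most receptors for the ligands were at low levels. CXCR1 and CXCR2, the receptors of CXCL8 and CXCL1, were listed at 0 in all 4 libraries, and CCR2 and CCR6 were at 0.02 TPM or less in each. IL6R, the IL-6 receptor, was at 6.83 and 3.45 TPM in 22RV1 and 2.45 and 5.69 TPM in PC3, with log2 ratios of −0.82 and 0.96 on knockdown. None of the 2 receptors tested in 22RV1 knockdown or the 4 in PC3 knockdown reached 2-fold, although in PC3 1 was at least 2-fold higher with TPM rescaled without mitochondrial and the 20 highest genes, and 2 with TPM rescaled to nuclear protein-coding genes. LIFR was under 1 TPM in all 4 libraries, and IL6ST, which encodes the shared gp130 chain, was at 1.32 and 2.37 TPM in 22RV1 and 2.15 and 4.97 TPM in PC3. Downstream, STAT3, the main transcription factor of IL-6 and LIF signalling, was at 21.6 and 15.9 TPM in 22RV1 and 0.02 and 0.09 TPM in PC3. The line with high IL6 and LIF was thus the line with STAT3 near 0. SOCS3, a feedback inhibitor of this signalling, was at 0.17 and 0.31 TPM in 22RV1 and 15.7 and 15.7 TPM in PC3. JAK1, a kinase bound to gp130, was at 1.01 and 2.45 TPM in 22RV1 and 14.1 and 20.7 TPM in PC3. On this list 5 of 8 genes were at least 2-fold higher in PC3 control cells and 2, STAT3 and BCL6, lower, against 19.9% and 21.3% of all genes tested. The lower count was 3 under 2 of the 3 other scalings. Of the 5 higher genes, 2 passed the filter through PC3 alone, and STAT3 passed it through 22RV1 alone, so their directions were fixed by the filter. On knockdown 0 of 6 in 22RV1 and 0 of 7 in PC3 reached 2-fold.

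Proteins that bind the AU-rich elements of cytokine mRNAs were expressed in both lines. ZFP36, which encodes the decay factor tristetraprolin, was at 9.73 and 10.8 TPM in 22RV1 and 4.13 and 8.31 TPM in PC3, and its log2 ratio with shDDX52 in PC3 was 0.86. HNRNPD, which reached the highest single value on this list, was at 507 and 552 TPM in 22RV1 and 283 and 272 TPM in PC3. None of the genes tested on this list passed 2-fold with shDDX52, 10 in 22RV1 and 9 in PC3.

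The genes whose levels over the 4 libraries were most like the mean of the 10 genes were found by the Euclidean distance between centred log2(TPM + 1) values, among 10993 genes with at least 1 TPM in each library. They were SQOR, FBLIM1, CAPN2, MYL9 and LCP1, at distances from 0.34 to 0.41, against a median of 5.09 over these genes. LCP1, a leukocyte actin-bundling protein gene, was at 4.50 and 4.56 TPM in 22RV1 and 187 and 226 TPM in PC3. For CXCL1 alone they were TMSB4X, IER3, KRT7, S100A6 and LGALS3BP, at distances from 0.85 to 2.72. IER3, an immediate early response gene, was at 2.73 and 2.39 TPM in 22RV1 and 684 and 499 TPM in PC3. Genes under 1 TPM in a 22RV1 library, such as CXCL6 and IL18, were outside these 10993 genes and could not be named. CXCL1 itself would not have met that rule. The distance rests on 4 libraries of 2 lines and is given as a description.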

How the data were processed

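RNA-seq was made of 22RV1 and PC3 cells with control or DDX52 shRNA, 1 library for each of 4 conditions. Reads were mapped by the authors with a cloud service, and TPM per Ensembl gene were deposited. The submitters' processing notes list CASAVA, HISAT2 and hg19. The quantification program, annotation and filters are not given in the sources used here. TPM keeps no depth, so no interval is given.

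Of 60671 identifiers, 42020 had a symbol in a table of gene names, and GENCODE 29 on GRCh38, not the listed build, gave the positions and gene types. The log2 ratio was log2((TPM + 1) / (TPM + 1)) for genes reaching 1 TPM in one library or both, and a 2-fold difference was counted beside its share among all genes tested. No test was made. The calculation was tested on simulated data with changes well past 2-fold in genes well above the filter. That checks the arithmetic only, and not calls near 2-fold or genes near 1 TPM. Alternatives covered the pseudocount, filter, scaling and fold, and nuclear protein-coding scaling was chosen after seeing the data. The members, the lists and the rule for named genes were chosen with earlier results of these data known. The rule named all members, the highest gene of each other list and up to 5 genes per list with a 2-fold difference in a comparison. Other list members and the neighbours of CXCL8 were named after their values were seen. The list of 10 housekeeping genes and the 8 pairs of genes whose ratios are given were also chosen then. Some genes that the rule names are not reported here. Motifs were searched on both strands in RefSeq promoters. Calculations used pandas 2.3.3 and numpy 2.4.6 in Python 3.11.15, and plots used matplotlib 3.10.9.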

Additional observations from a re-analysis of the deposited data

Results flagged for a closer look

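NFKBIA, which encodes IκBα, was higher with shDDX52 in 22RV1 cells, from 42.0 to 56.4 TPM, and lower in PC3 cells, from 241 to 152 TPM. The log2 ratios were 0.42 and −0.66, and the ratio in PC3 minus that in 22RV1 was −1.07. It was listed here because the libraries of the cell lines moved in opposite directions. Of the 10 genes, only NFKBIA and LIF passed the filter in both lines, and LIF was higher with shDDX52 in each. Opposite directions were not particular to NFKBIA. BCL3 and NFKBIZ were also higher in 22RV1 and lower in PC3 cells, with differences between the lines of −0.98 and −0.92. IL6R went the other way, with a difference of 1.77. How common opposite directions are among all genes was not counted. None of these differences was tested, since each condition has 1 library.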

How the results depend on the processing

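Counts, medians and single log2 ratios, 29 results in all, were recomputed under the alternatives, and none of the 169 recomputed values reversed direction. A count had no direction to reverse, and a single log2 ratio cannot change sign with the pseudocount, so for these no reversal was possible. A log2 value was taken as moved when it differed by more than 0.25, and a count when it differed by more than 1.5 times. The median in 22RV1 knockdown moved from 0.32 to 0 with no filter, where all 10 genes enter and several are listed at 0. The count of genes at least 2-fold lower in PC3 knockdown moved from 2 to 1 with a pseudocount of 5 TPM and to 1 with TPM rescaled to nuclear protein-coding genes, which was chosen after seeing the data. The count of genes higher in PC3 knockdown moved from 0 to 1, LIF, with a 1.5-fold threshold, against 8.95% of all genes tested. At that threshold the lower count went from 2 to 3, with NFKBIA added, against 9.84% of all genes tested. The median in PC3 against 22RV1 control cells moved from 5.62 to 8.17 with a pseudocount of 0.1 TPM and to 3.83 with one of 5 TPM, which follows from 22RV1 values at or near 0. All 45 recomputed log2 ratios in PC3 knockdown and all 10 in 22RV1 knockdown moved by 0.25 or less. Between the lines, 28 of 45 did so and 17 moved, and the log2 ratio of CXCL1 ran from 7.31 to 12.95. No paired analysis was possible because the labels carry no replicate numbers, and with 1 library per condition none could be left out. TPM keeps no depth, so the counts behind levels under 1 TPM, CCL2 included, are unknown.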

Other observations

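ITGB2, which encodes the β2 chain of the leukocyte integrins that bind ICAM-1, was at 104 and 68.1 TPM in PC3, against 0.25 and 0.61 TPM in 22RV1. ITGAL, whose product pairs with it in the integrin LFA-1, was at 0.15 and 0 TPM in the PC3 libraries. PTPRC was under 1 TPM in the same libraries, at 0.16 and 0.39 TPM. TNFRSF12A, the receptor of the cytokine TWEAK, had the highest single value among the 14 receptors listed for inducing signals, at 50.6 and 42.0 TPM in 22RV1 and 435 and 387 TPM in PC3. Of these receptors, 4 of 8 tested were at least 2-fold higher in PC3 than in 22RV1 control cells and 0 lower, against 19.9% and 21.3% of all genes tested. IL1RAP, TNFRSF11A and TLR2, 3 of the 4, passed the filter through PC3 alone and so had to be higher there. On knockdown 0 of 5 in 22RV1 and 0 of 9 in PC3 reached 2-fold, although 1 of the 9 was at least 2-fold higher with TPM rescaled to nuclear protein-coding genes. No explanation was tested for these values.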
